A study of Homo sapiens with 4 samples.

Results

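Histone gene mRNAs were examined in the RNA immunoprecipitation sequencing (RIP-seq) libraries of HCCLM3 cells. They are the gene names that start with HIST1H, HIST2H, HIST3H, HIST4H, H2AF, H3F3 or H1F. Of the 13300 gene names listed in the files, 58 matched, with 87 of the 34975 listed transcripts. The 47 names with the prefix HIST are called clustered here, after the gene clusters they come from, and the other 11 names are called variant.

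Histones are the proteins around which DNA is wound. The core histones H2A, H2B, H3 and H4 form the nucleosome, and the linker histone H1 binds the DNA between nucleosomes. Most clustered genes are replication-dependent. They are transcribed while DNA is copied, they usually have no introns, and their mRNA ends just after a short hairpin and is not polyadenylated. The hairpin is bound by the stem-loop binding protein SLBP and cut from the longer transcript with the help of the U7 small nuclear ribonucleoprotein. Variant histone genes are mostly spliced, carry a poly(A) tail and are expressed outside of S phase as well. KIAA1429, also called VIRMA, is the largest known subunit of the complex that writes N6-methyladenosine (m6A) on RNA.

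RIP recovers the RNA that comes down with a protein. HCCLM3 is an established human hepatocellular carcinoma cell line. Its lysate was incubated with beads that carried an antibody against KIAA1429 (KIAA1429 RIP, 2 libraries) or normal IgG (IgG RIP, 2 libraries), with no genetic change or drug in either group. The question was which mRNAs associate with KIAA1429. The labels number the libraries of each group 1 and 2 but do not say whether they came from separate cultures, so p-values measure only the spread between these libraries, which may be technical. They also do not say that libraries of the same number share a culture or a day. The values are FPKM, fragments relative to the length of the transcript and to how many fragments the library mapped, and the depth of each library is unknown. Over all genes they summed to 295573 and 315446 in the IgG RIP libraries against 337041 and 340300 in the KIAA1429 RIP libraries. Of 8 markers of hepatocytes and hepatocellular carcinoma, 8 were listed, with ALB between 53.5 and 76.3 FPKM and AFP between 99.1 and 128 FPKM. None of the 2 endothelial markers was listed, 1 of 3 immune markers (CD68) was, and 1 of 2 fibroblast markers (COL3A1) was. The levels in IgG RIP are the background against which those in KIAA1429 RIP are set.

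The hairpin is the sequence feature that sets the clustered class apart, so its forms are shown first. The 100 bases after the annotated stop codon were searched, on the transcript strand only, for the 16-base pattern GGNNNNTNTNNNNNCC, with 6 base pairs in the stem and 4 bases in the loop. It was found in 42 of the 43 clustered genes with an annotated stop codon (97.674%), in 1 of 11 variant genes (9.091%) and in 1 of 11077 other coding genes (0.009%). A member counted if any of its listed transcripts had the pattern, while other genes were searched only in their most abundant protein_coding transcript. The clustered gene without a match in this window was HIST1H2AG, and the variant gene with a match was H2AFX. The 43 member hairpins took 7 forms. A gene of each form follows from GRCh37, in DNA letters of the transcript strand, with the hairpin in capitals and the flanks of 5 bases in lower case.
HIST1H1E: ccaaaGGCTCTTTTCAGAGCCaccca
HIST1H4B: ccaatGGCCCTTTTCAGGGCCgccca
HIST1H2BK: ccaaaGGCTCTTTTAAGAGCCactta
HIST2H4A: ccaaaGGCCCTTTTTAGGGCCgacca
HIST1H3E: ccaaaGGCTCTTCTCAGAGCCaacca
HIST2H2AC: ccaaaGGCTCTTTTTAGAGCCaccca
H2AFX: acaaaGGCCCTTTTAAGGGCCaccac
The form of HIST1H1E (chr6:26157318-26157343, plus strand) was shared by 26 genes of the H1, H2A, H2B and H3 families. The form of HIST1H4B (chr6:26027124-26027149, minus strand) was that of 6 genes, each of them an H4 gene. The form of HIST1H2BK (chr6:27114140-27114165, minus strand) was that of 6 genes, namely HIST1H2BC, HIST1H2BD, HIST1H2BJ, HIST1H2BK, HIST1H1A and HIST2H2AB. HIST2H4A (chr1:149804591-149804616, plus strand) shared its form with HIST2H4B alone among the members. The forms of HIST1H3E (chr6:26225819-26225844, plus strand), HIST2H2AC (chr1:149858936-149858961, plus strand) and H2AFX (chr11:118965603-118965628, minus strand) occurred in 1 member each.

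In the clustered genes the hairpin began between 25 and 68 bases after the stop codon, with a median of 36. The files listed 21 clustered transcripts only as far as the stop codon, so that the hairpin lay outside the listed transcript. For 23 clustered genes no listed transcript went more than 50 bases past the hairpin, and for 18 genes at least 1 listed transcript did, with 20 such transcripts in all. The remaining 8 clustered transcripts had no hairpin in the window or no annotated stop codon. The polyadenylation signal AATAAA stood in the last 50 listed bases of 1 of the 27 transcripts that ended by the hairpin and of 10 of the 20 that went beyond it. It stood there in 8 of the 32 variant transcripts, which came from 7 of the 11 variant genes, and in 63.0% of the 11077 other coding genes, taken by their most abundant transcript. In the GENCODE annotation of GRCh37, 42 of the 51 clustered transcripts that it holds had 1 exon, and 27 of the 32 variant transcripts had more than 1. By gene, 5 of the 11 variant genes had 1 exon in every listed transcript. The annotated spans were the same as the listed ones for 34 of the 87 transcripts, so exon numbers can differ from those behind the FPKM values.

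**Figure D1:**
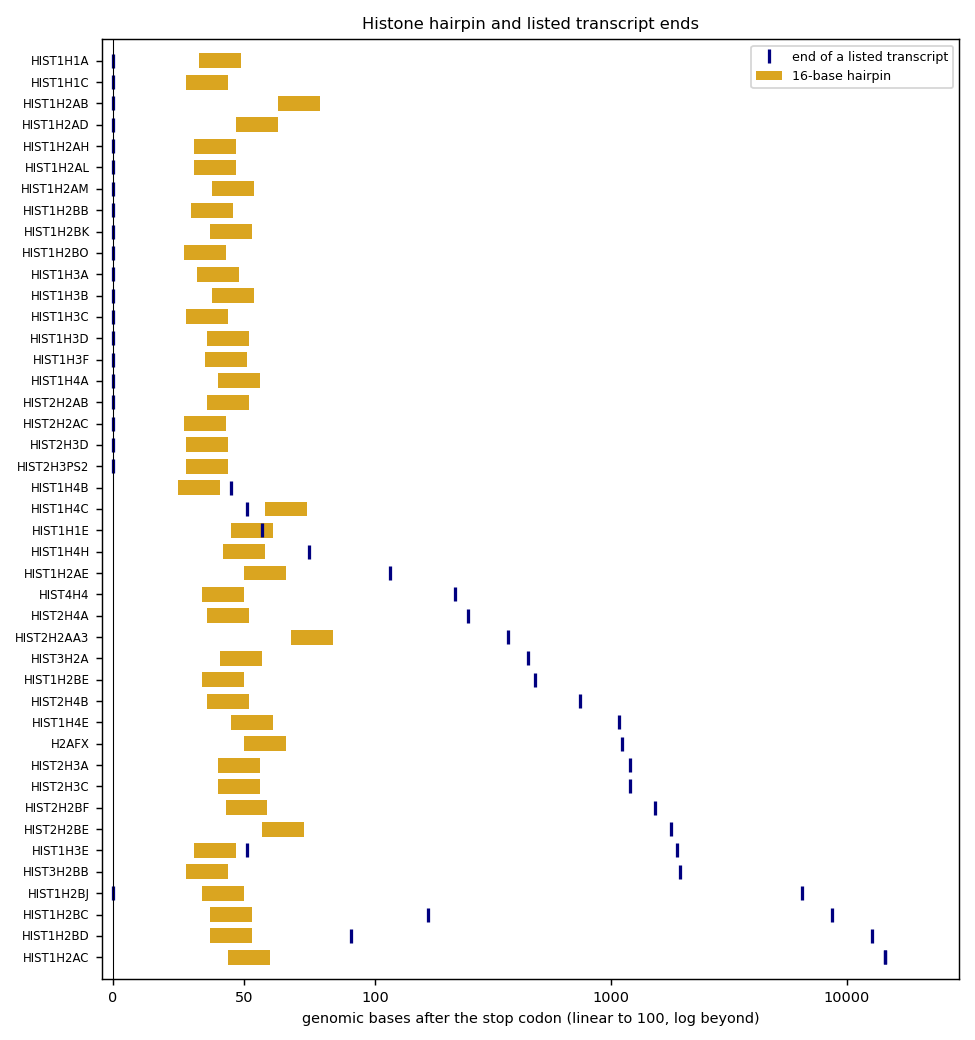
Distance of the 16-base hairpin (bar) and of the end of each listed transcript (tick) from the stop codon, in genomic bases, for the 43 member genes with a hairpin; the axis is linear to 100 and logarithmic beyond. The bars start between 25 and 68 bases after the stop codon, 21 ticks of clustered transcripts stand at 0, and the ticks of 20 clustered transcripts lie more than 50 bases past the bar.

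The members came from known loci. The 32 HIST1 genes lay between the ends chr6:26017313-27861621, the 12 HIST2 genes within chr1:149400132-149859466, the 2 HIST3 genes within chr1:228644680-228648171, and the HIST4 gene HIST4H4 at chr12:14923489-14924065. The listed spans of 2 pairs of members overlapped on the same strand, HIST1H3D with HIST1H2AD and HIST1H2BN with HIST1H2AL, so reads of one could have been counted for the other. The coding sequences of HIST2H3A and HIST2H3C were identical, as were those of HIST2H4A and HIST2H4B, and reads within them cannot be told apart. Among the other coding sequences of equal length, the closest pair was HIST2H3D and HIST2H3PS2, at 98.8% identity. HIST1H2BF, HIST1H2BG, HIST1H2BN and HIST2H2AA4 were not compared, since the annotation used here did not hold their listed transcripts.

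Clustered histone mRNAs were among the most abundant RNAs of the libraries. The study's methods name a poly(A) isolation, whereas the labels name total RNA, and which of them held was not tested. Among the 100 genes with the highest mean FPKM, 8 were clustered histone genes and 0 were variant ones. The 47 clustered genes held 4.21% and 2.34% of all FPKM in the IgG RIP libraries against 5.002% and 1.94% in the KIAA1429 RIP libraries. The 11 variant genes held 0.247% and 0.138% in IgG RIP against 0.251% and 0.154% in KIAA1429 RIP. Clustered genes thus gave between 92.6% and 95.2% of histone FPKM in every library. Most of it was on transcripts listed no further than 50 bases past the hairpin, which held 76.0% and 70.1% of the clustered FPKM in IgG RIP against 75.2% and 67.6% in KIAA1429 RIP. Those listed beyond it held 15.9% and 21.5% in IgG RIP against 16.4% and 23.3% in KIAA1429 RIP. They include HIST1H2AE-201, which at 51 bases past the hairpin was just over the limit. It had 389 and 285 FPKM in IgG RIP against 617 and 236 FPKM in KIAA1429 RIP. The share of clustered histone mRNA molecules that carried a poly(A) tail was not tested, because FPKM on a listed transcript does not show where its RNA ended.

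**Figure D2:**
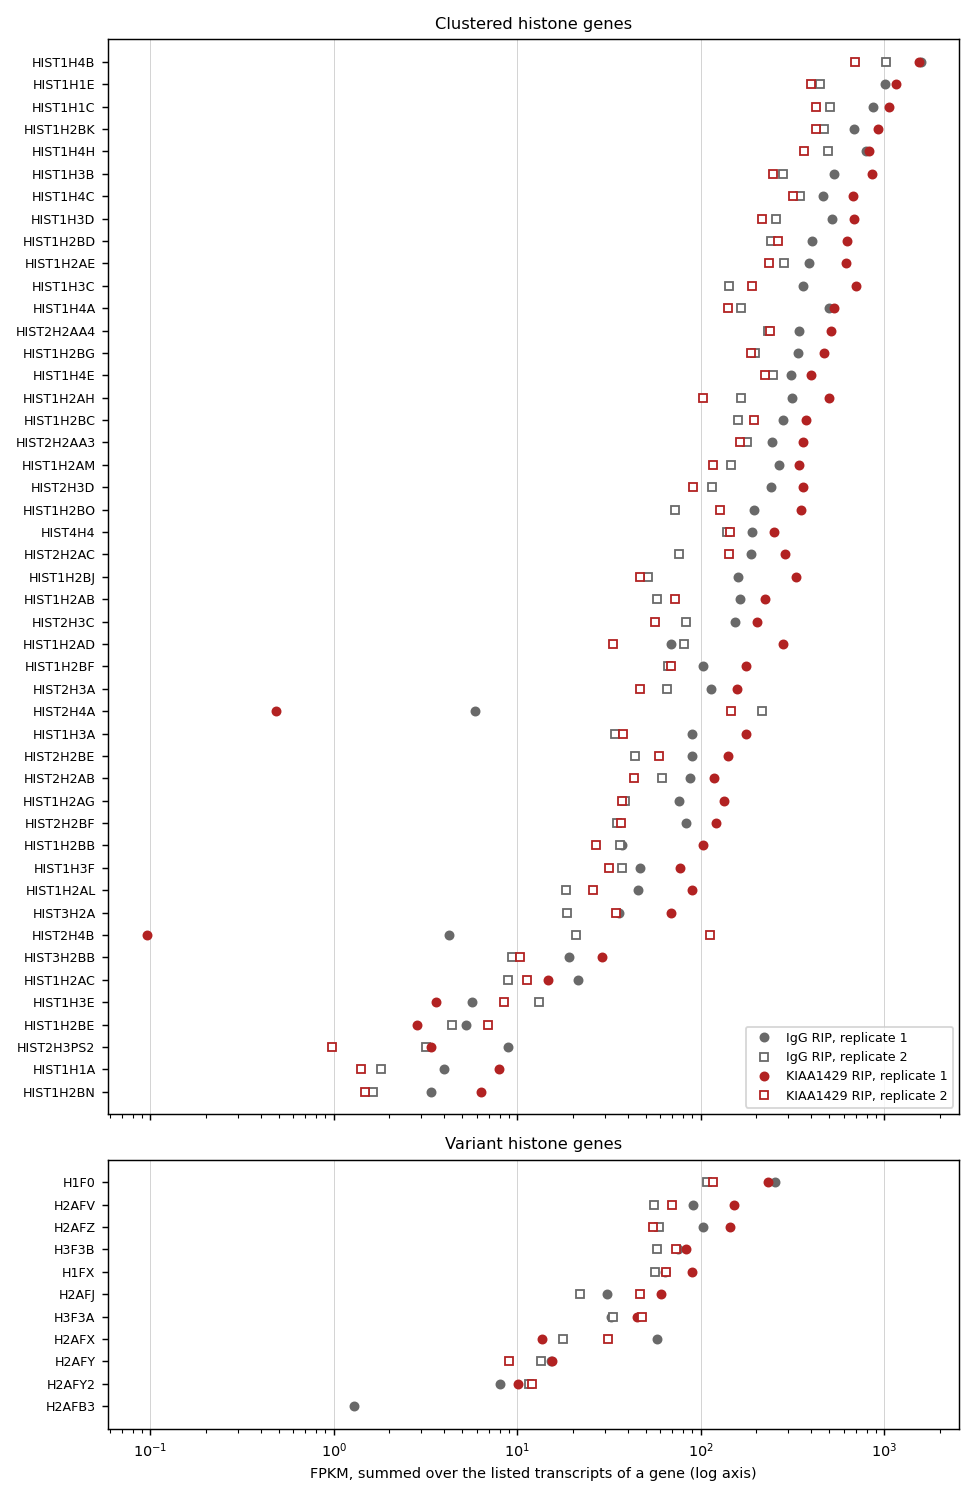
FPKM of each of the 58 members in each library, on a log axis, with clustered genes above and variant genes below, sorted by their mean; circles are replicate 1 and squares replicate 2, grey is IgG RIP and red is KIAA1429 RIP, and values listed at 0 (H2AFB3 in 3 libraries) are not drawn. In 42 clustered genes the circle lies to the right of the square of the same colour, while HIST2H4A, HIST2H4B and HIST1H3E show the opposite order.

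H4 genes took the largest part of the clustered FPKM. H4 is paired with H3 at the centre of the nucleosome. The 8 H4 genes held 30.9% and 35.8% of the clustered FPKM in IgG RIP against 25.1% and 32.4% in KIAA1429 RIP. HIST1H4B had the highest mean of all members, 1210.1 FPKM, with 1579 and 1023 FPKM in IgG RIP against 1547 and 692 FPKM in KIAA1429 RIP. HIST1H4H had 796 and 492 FPKM in IgG RIP against 822 and 364 FPKM in KIAA1429 RIP. In both genes the lowest of the 4 values was that of KIAA1429 RIP replicate 2. HIST1H4C had 461 and 346 FPKM in IgG RIP against 676 and 317 FPKM in KIAA1429 RIP, and HIST1H4A had 497 and 167 FPKM beside 531 and 141 FPKM. HIST1H4E had 311 and 248 FPKM in IgG RIP against 400.1 and 224 FPKM in KIAA1429 RIP.

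Linker histones were the next highest single genes. HIST1H1E had 1008 and 446 FPKM in IgG RIP against 1151 and 397 FPKM in KIAA1429 RIP. HIST1H1C had 864 and 507 FPKM in IgG RIP against 1065 and 425 FPKM in KIAA1429 RIP. Both genes were highest in KIAA1429 RIP replicate 1 and lowest in KIAA1429 RIP replicate 2, with the IgG RIP values between them. The third clustered H1 gene, HIST1H1A, stayed between 1.40 and 7.93 FPKM.

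H2A and H2B form a dimer that is added to the nucleosome after H3 and H4. HIST1H2BK, the highest H2B gene, had 681 and 467 FPKM in IgG RIP against 922 and 424 FPKM in KIAA1429 RIP. HIST1H2BD had 404 and 241 FPKM in IgG RIP against 624 and 264 FPKM in KIAA1429 RIP. HIST1H2AE, the highest H2A gene, had 389 and 285 FPKM in IgG RIP against 617 and 236 FPKM in KIAA1429 RIP. In all of them replicate 1 exceeded replicate 2 in each group. The remaining H2A and H2B genes among the 20 highest clustered genes (HIST2H2AA4, HIST1H2BG, HIST1H2AH, HIST1H2BC, HIST2H2AA3 and HIST1H2AM) had values between 103 and 509 FPKM. The 13 H2A genes held 18.02% to 21.0% of the clustered FPKM of a library and the 13 H2B genes 18.7% to 22.1%.

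H3 carries the tail with many of the known regulatory modifications. HIST1H3B had 531 and 280.2 FPKM in IgG RIP against 853 and 248 FPKM in KIAA1429 RIP. HIST1H3D had 522 and 258 FPKM in IgG RIP against 682 and 215 FPKM in KIAA1429 RIP, and HIST1H3C had 363 and 143 FPKM beside 701 and 190.5 FPKM. The HIST1H3D total includes HIST1H3D-202, a transcript with 2 exons that the GENCODE annotation places under another gene. This transcript had 144 and 81.7 FPKM in IgG RIP against 125 and 70.7 FPKM in KIAA1429 RIP. HIST2H3D had 241 and 115 FPKM in IgG RIP against 360.4 and 90.6 FPKM in KIAA1429 RIP. The gap between replicates was widest for this family, whose sum was 2.01-fold higher in replicate 1 than in replicate 2 of IgG RIP and 3.47-fold higher in KIAA1429 RIP. The 20 highest clustered genes together held between 79.3% and 83.9% of the clustered FPKM of a library, so the sums below rest mainly on them.

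The libraries differed more within the groups than between them. Summed over the 47 clustered genes, IgG RIP had 12437 and 7395 FPKM and KIAA1429 RIP had 16858 and 6601 FPKM. The IgG RIP libraries thus lay between those of KIAA1429 RIP. The mean was 9916 ± 3565 FPKM in IgG RIP against 11730 ± 7253 FPKM in KIAA1429 RIP (SD, n = 2), a log2 ratio of 0.24 with an error of 1.09. The exact permutation test over the 4 libraries gave a two-sided p of 1, where the smallest p that 2 libraries against 2 allow is 0.333. The sum in KIAA1429 RIP was 1.36 times that in IgG RIP among the libraries numbered 1 and 0.893 times that among those numbered 2. Taken as a share of all FPKM, whose sums were also higher in KIAA1429 RIP, the clustered log2 ratio was 0.08 with an error of 1.14.

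The sum over the 11 variant genes was 730.4 and 435 FPKM in IgG RIP against 846 and 525 FPKM in KIAA1429 RIP. Here too the library numbered 1 had the larger sum in each group. The log2 ratio was 0.23 with an error of 0.72, and the exact permutation test gave a two-sided p of 0.667. As a share of all FPKM, the variant log2 ratio was 0.07 with an error of 0.78. Clustered FPKM as a share of all histone FPKM was 94.5% and 94.5% in IgG RIP against 95.2% and 92.6% in KIAA1429 RIP (exact permutation p = 1). Split by family, the log2 ratio of the clustered sums was 0.11 for H1, 0.41 for H2A, 0.43 for H2B, 0.42 for H3 and -0.03 for H4. Each was smaller than its error, which ranged from 0.79 for H4 to 1.46 for H3.

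**Figure D3:**
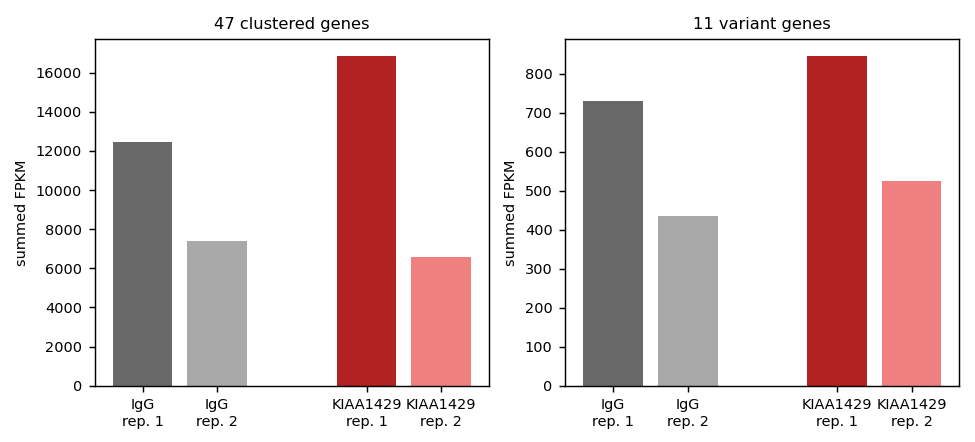
Summed FPKM of the 47 clustered genes (left) and the 11 variant genes (right) in each of the 4 libraries, 1 bar a library, with axes that start at 0 and differ in scale. In both classes the bar of replicate 1 is the higher of its group, and the clustered bars of IgG RIP, 12437 and 7395, lie between those of KIAA1429 RIP, 16858 and 6601.

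The difference between libraries ran through nearly all clustered genes. In 42 of the 47 the value of replicate 1 was above that of replicate 2 in both groups, against 34.9% of the 11361 gene totals tested. Among the 10 tested variant genes this held for 7. In 17 clustered genes and 1 variant gene (H1F0) the difference was at least 2-fold in both groups, against 5.23% of all gene totals. The median clustered gene was 1.82-fold higher in replicate 1 than in replicate 2 of IgG RIP and 2.74-fold higher in KIAA1429 RIP. The corresponding medians over variant genes were 1.36-fold and 1.34-fold, and those over all gene totals were 1.11-fold and 1.03-fold. In 25 clustered and 2 variant genes KIAA1429 RIP replicate 1 was the highest and KIAA1429 RIP replicate 2 the lowest of the 4 libraries, against 7.49% of all gene totals. These counts describe 4 libraries, and genes of one library are not independent of each other.

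**Figure D4:**
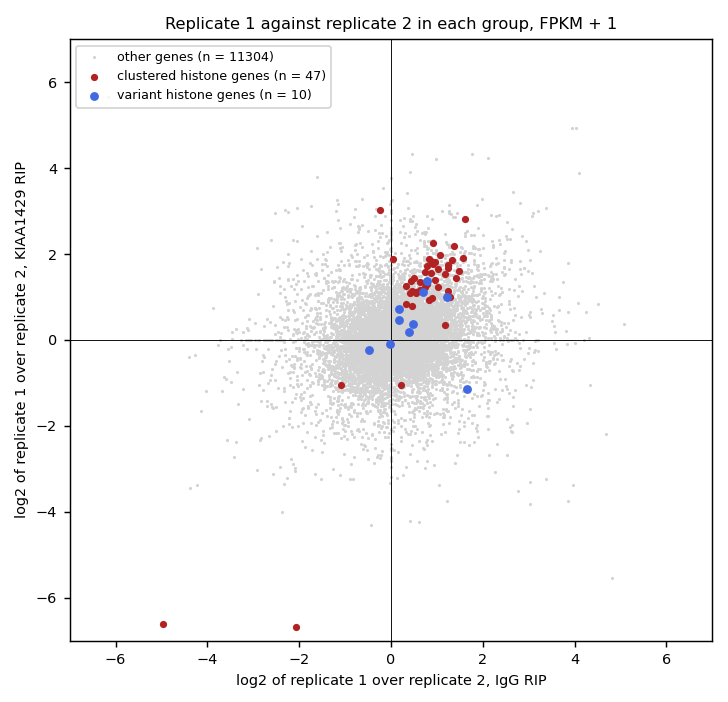
Log2 ratio of replicate 1 over replicate 2, computed from FPKM + 1, in IgG RIP (horizontal) and KIAA1429 RIP (vertical) for each of the 11361 gene totals tested, with the 47 clustered genes in red, the 10 tested variant genes in blue and all others in grey. 42 red points lie at the upper right, where replicate 1 is the higher in both groups, and HIST2H4A, HIST2H4B and HIST1H3E lie at the lower left.

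A set of 11 genes of DNA replication and proliferation was also higher in the libraries numbered 1. The 11 genes PCNA, MCM2 to MCM7, RRM2, TYMS, MKI67 and TOP2A summed to 425 and 170.2 FPKM in IgG RIP against 375 and 152 FPKM in KIAA1429 RIP. Their sum was highest in IgG RIP replicate 1, whereas that of the clustered histone genes was highest in KIAA1429 RIP replicate 1. All 11 were higher in replicate 1 than in replicate 2 of both groups, against 34.9% of all gene totals, and 6 were so by at least 2-fold, against 5.23%. As they were chosen after the pattern had been seen, nothing is read from these counts. MKI67, a marker of cycling cells, had 42.3 and 17.3 FPKM in IgG RIP against 33.3 and 11.9 FPKM in KIAA1429 RIP. The part of the cell cycle, or of the handling of the libraries, in the histone values was not tested. In bulk samples, fewer cycling cells and less histone mRNA per cell cannot be told apart.

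In 3 clustered genes, named after their values were seen, replicate 2 was at least 2-fold above replicate 1 in both groups, against 3.27% of all gene totals. HIST2H4A had 5.90 and 216 FPKM in IgG RIP against 0.486 and 145 FPKM in KIAA1429 RIP. HIST2H4B had 4.26 and 21.0 FPKM in IgG RIP against 0.0958 and 112 FPKM in KIAA1429 RIP. Both H4 genes were at 5.90 FPKM or less in the libraries numbered 1, while the other H4 genes were higher there than in the libraries numbered 2. Summed, since their coding sequences are identical, they had 10.2 and 237 FPKM in IgG RIP against 0.582 and 258 FPKM in KIAA1429 RIP, so that in the sum too replicate 2 was above replicate 1 in each group. HIST1H3E was low throughout, with 5.63 and 13.2 FPKM in IgG RIP against 3.60 and 8.48 FPKM in KIAA1429 RIP.

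Against this spread, no histone gene was called enriched or depleted in KIAA1429 RIP. Of the 58 members, 57 had a mean of at least 1 FPKM and were tested with limma on log2(FPKM + 1) among 11361 gene totals. The member below this level was H2AFB3, at 1.28 and 0 FPKM in IgG RIP and listed at 0 in both KIAA1429 RIP libraries. A call needed a log2 fold change beyond 1 and a Benjamini-Hochberg adjusted p under 0.05. It was made for 0 members in each direction, as for 0% of all gene totals, and the adjusted p-values of the members from limma were 0.997 to 0.999. At an unadjusted p under 0.05, 1 member was higher (H2AFJ) and 0 were lower, beside 3.17% and 1.43% of all gene totals. The count of clustered genes at that level was 0, and their lowest unadjusted p from limma was 0.0925.

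The median log2 fold change was 0.22 over the 47 clustered genes and 0.22 over the 10 tested variant genes, beside 0.02 over all gene totals. It was above 0 for 35 clustered and 7 variant genes, against 51.4% of all gene totals. The clustered median was -0.43 without KIAA1429 RIP replicate 1, 0.88 without KIAA1429 RIP replicate 2, 0.57 without IgG RIP replicate 1 and -0.10 without IgG RIP replicate 2. The sign of the median thus turned with single libraries. The variant median was 0.04, 0.46, 0.45 and 0.11 in the same order. Quantile normalization, which gives every library the same distribution, moved the clustered median to -0.03. The limma standard error had a median of 0.57 over clustered genes, 0.39 over variant genes and 0.46 over all gene totals. Both KIAA1429 RIP libraries were above both IgG RIP libraries in 0 clustered and 3 variant genes, against 16.6% of all gene totals, and below them in 0 members, against 15.2%.

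**Figure D5:**
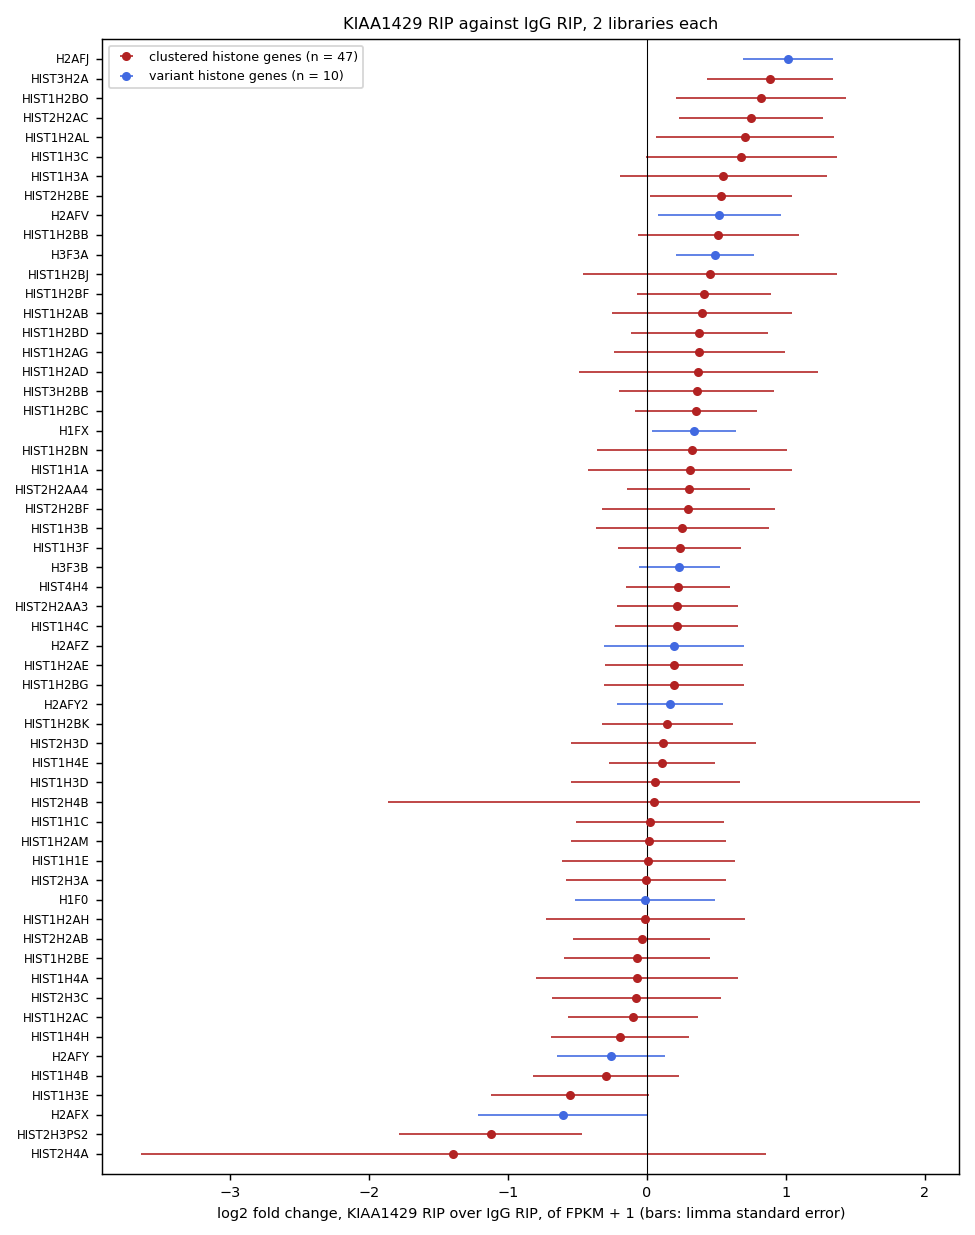
Log2 fold change of KIAA1429 RIP over IgG RIP, from limma on log2(FPKM + 1), with its standard error (bars), for the 57 tested members, sorted, with clustered genes in red and variant genes in blue. The points run from -1.39 for HIST2H4A, whose bar is the longest, to 1.02 for H2AFJ, and 42 of the 57 lie above 0.

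The 3 variant genes with separate groups were H2AFJ, H3F3A and H1FX. H2AFJ, a replication-independent H2A variant, is a single-exon gene at chr12:14927317-14927960, in the locus that also holds HIST4H4. It had 30.8 and 21.9 FPKM in IgG RIP against 61.0 and 46.9 FPKM in KIAA1429 RIP. Its log2 fold change was 1.02 ± 0.32 (SE), with an unadjusted p of 0.0166 and an adjusted p of 0.997 from limma. Without a given library its log2 fold change was between 0.78 and 1.25. HIST4H4, which carries a hairpin, had 191 and 139 FPKM in IgG RIP against 252 and 144 FPKM in KIAA1429 RIP, values that overlapped between the groups.

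H3F3A and H3F3B encode the same replacement H3, which is deposited outside of replication. H3F3A (chr1:226249552-226259702) had 32.4 and 33.1 FPKM in IgG RIP against 44.9 and 47.9 FPKM in KIAA1429 RIP. These totals lay close together within a group and did not overlap between the groups. The log2 fold change of the total was 0.49 ± 0.28 (SE), with an unadjusted p of 0.125 from limma. The separation did not hold for its most abundant transcript, H3F3A-203. That transcript had 26.2 and 26.6 FPKM in IgG RIP against 26.1 and 44.4 FPKM in KIAA1429 RIP. H3F3B had 75.6 and 57.6 FPKM in IgG RIP against 83.1 and 72.9 FPKM in KIAA1429 RIP, and its groups overlapped. CENPA, the H3 variant of the centromere and outside the naming rule, had 16.7 and 9.66 FPKM in IgG RIP against 15.8 and 9.45 FPKM in KIAA1429 RIP.

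Linker variants were H1F0, which accumulates in cells that have stopped dividing, and H1FX. H1FX had 63.7 and 56.0 FPKM in IgG RIP against 89.1 and 64.6 FPKM in KIAA1429 RIP, with a log2 fold change of 0.34 ± 0.30 (SE) and an unadjusted p of 0.295 from limma. Without a library in turn it ranged from 0.11 to 0.57. The lower value of KIAA1429 RIP stood just above the higher value of IgG RIP. H1F0 had 253 and 109 FPKM in IgG RIP against 233 and 116 FPKM in KIAA1429 RIP, so that its groups overlapped fully. It was the variant gene with the highest mean, 177 FPKM.

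H2AFZ and H2AFV encode the H2A.Z proteins found at promoters. H2AFZ had 102 and 59.0 FPKM in IgG RIP against 145 and 55.1 FPKM in KIAA1429 RIP, and H2AFV had 90.7 and 55.7 FPKM beside 151 and 69.4 FPKM. Both had higher values in the libraries numbered 1. H2AFX, whose product marks DNA breaks when phosphorylated, is known to give both a hairpin-ended and a polyadenylated mRNA. It had 57.7 and 17.7 FPKM in IgG RIP against 13.7 and 31.4 FPKM in KIAA1429 RIP, with the order of the replicates opposite in the groups. H2AFY and H2AFY2, the macroH2A genes, had 15.4 and 13.5 FPKM beside 15.5 and 9.05 FPKM, and 8.06 and 11.6 FPKM beside 10.1 and 12.0 FPKM. Both were low and overlapped between the groups.

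The clustered genes with the largest positive log2 fold changes were HIST3H2A and HIST1H2BO. HIST3H2A had 35.7 and 18.8 FPKM in IgG RIP against 68.9 and 34.4 FPKM in KIAA1429 RIP, a log2 fold change of 0.89 ± 0.45 (SE). HIST1H2BO had 196 and 72.6 FPKM in IgG RIP against 350 and 128 FPKM in KIAA1429 RIP, a log2 fold change of 0.82 ± 0.61. Without a library in turn these ranged from 0.40 to 1.38 for HIST3H2A and from 0.10 to 1.54 for HIST1H2BO. In both, the lower KIAA1429 RIP value fell below the higher IgG RIP value. The largest negative values were those of HIST2H4A, -1.39 ± 2.25, HIST2H3PS2, -1.13 ± 0.66, and the variant gene H2AFX, -0.60 ± 0.61. Without a library in turn they ranged from -4.70 to 1.92, from -1.75 to -0.50 and from -1.43 to 0.22, respectively. HIST2H3PS2 was near the lower end of the members, with 8.92 and 3.18 FPKM in IgG RIP against 3.39 and 0.981 FPKM in KIAA1429 RIP.

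Single transcripts were tested as well. Of the 87 member transcripts, 79 were tested with limma among 23375, and 0 were called in each direction, as were 0% of all. The lowest adjusted p of a member transcript from limma was 0.839, and 4 had an unadjusted p under 0.05. These 4, named after their values were seen, were the single transcript of H2AFJ and H2AFV-202, which were higher in KIAA1429 RIP (3.03% of all transcripts were, at that p), and H2AFV-203 and H2AFV-208, which were lower (2.33% of all were). H2AFV-202 had 25.2 and 11.4 FPKM in IgG RIP against 104 and 46.4 FPKM in KIAA1429 RIP. H2AFV-203 had 2.84 and 5.84 FPKM in IgG RIP and H2AFV-208 had 2.66 and 3.45 FPKM, and both were at 0 in KIAA1429 RIP. The assignment of reads among these overlapping transcripts of H2AFV was not tested. The H2AFV total, which sums 8 listed transcripts, overlapped between the groups as given above.

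In some clustered genes, longer and shorter listed transcripts were ordered differently across the libraries, and in HIST1H2BC both went beyond the hairpin. HIST1H2BC-201, which was listed 8599 bases past the hairpin with 2 annotated exons, had 3.44 and 146 FPKM in IgG RIP against 349 FPKM and 0 in KIAA1429 RIP. HIST1H2BC-202, listed 116 bases past it, had 279 and 13.2 FPKM in IgG RIP against 25.5 and 196 FPKM in KIAA1429 RIP. In each library the one was high where the other was low, while the gene total, at 282 and 159 FPKM beside 375 and 196 FPKM, was the higher in the library numbered 1 of each group. How reads were assigned between these overlapping transcripts was not tested. HIST1H2BD kept most of its FPKM on the short transcript, with 392 and 193 FPKM in IgG RIP against 609 and 237 FPKM in KIAA1429 RIP. Its long spliced transcript, HIST1H2BD-201, had 11.8 and 47.8 FPKM in IgG RIP against 15.4 and 26.8 FPKM in KIAA1429 RIP, so that the libraries numbered 2 were the higher ones. HIST1H2BJ showed the same split after its values were seen, with 145 and 21.6 FPKM beside 328 and 20.05 FPKM for the transcript that ended at the stop codon, and 11.4 and 28.8 FPKM beside 3.12 and 24.96 FPKM for the spliced one.

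The 18 genes with a transcript listed beyond the hairpin summed to 2516 and 1821 FPKM in IgG RIP against 3701 and 1801 FPKM in KIAA1429 RIP. The 23 genes listed only as far as the hairpin summed to 8536 and 4778 FPKM in IgG RIP against 11182 and 4052 FPKM in KIAA1429 RIP. The log2 ratios of KIAA1429 RIP over IgG RIP were 0.34 with an error of 0.81 and 0.19 with an error of 1.19, respectively. Both sums had IgG RIP values between those of KIAA1429 RIP.

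The genes that make and handle histone mRNA were not called either. Of 24 genes for histone mRNA transcription, end processing and decay, 24 were tested, and 0 passed the adjusted threshold or an unadjusted p of 0.05 in limma. Both KIAA1429 RIP libraries were above both IgG RIP libraries for 4 of them, against 16.6% of all gene totals, and below both for 2, against 15.2%. SLBP, which binds the hairpin, had 16.4 and 6.46 FPKM in IgG RIP against 14.7 and 19.9 FPKM in KIAA1429 RIP. LSM10 and LSM11 belong to the U7 ribonucleoprotein. LSM10 had 19.4 and 27.8 FPKM in IgG RIP against 29.96 and 22.7 FPKM in KIAA1429 RIP, and LSM11 had 1.95 and 2.98 FPKM beside 1.16 and 1.58 FPKM. Only for LSM11 of this pair were the groups apart. ZNF473, a U7-associated zinc finger protein, had 6.04 and 3.93 FPKM in IgG RIP against 9.24 and 1.41 FPKM in KIAA1429 RIP. NPAT, which drives histone gene transcription, had 2.65 and 2.96 FPKM in IgG RIP against 4.16 and 3.19 FPKM in KIAA1429 RIP, and CASP8AP2, needed for end processing, had 6.05 and 6.35 FPKM beside 4.76 and 1.77 FPKM. The groups did not overlap for either gene, with unadjusted p-values of 0.57 and 0.15 from limma.

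Of 19 genes for histone chaperones and deposition factors, 19 were tested, and 0 passed the adjusted threshold or an unadjusted p of 0.05 in limma. Both KIAA1429 RIP libraries were above both IgG RIP libraries for 2 of them, against 16.6% of all gene totals, and below both for 2, against 15.2%. NASP, which holds H3 and H4 before they are deposited, had 21.7 and 1.62 FPKM in IgG RIP against 29.04 and 11.6 FPKM in KIAA1429 RIP, and it was at least 2-fold higher in the library numbered 1 of each group. HIRA, which deposits the replacement H3, had 15.1 and 10.9 FPKM in IgG RIP against 12.01 and 11.1 FPKM in KIAA1429 RIP. The median log2 fold change was 0.19 over the processing genes and -0.06 over the chaperone genes, beside 0.02 over all gene totals.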

How the data were processed

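RIP-seq was measured in 4 HCCLM3 libraries, grouped by their labels. Per the methods, coprecipitated RNA underwent poly(A) isolation, fragmentation and random priming, while the labels name total RNA. Reads were aligned to GRCh37/hg19 with HISAT2 by the methods, whereas the submitters' processing notes name Bowtie2 2.1.0. The authors deposited FPKM values per transcript. The tool behind them and how reads shared by similar genes were assigned are not given in the sources used here. The depth is unknown.

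Here, FPKM was summed per gene name. limma 3.58.1 in R 4.3.3 (trend, two-sided, Benjamini-Hochberg over all totals) was run on log2(FPKM + 1) of totals with a mean of at least 1 FPKM, a scale that understates changes of low genes. The study's count test does not apply to FPKM. Class sums were compared by exact permutation tests in Python 3.11.15 with scipy 1.17.1. The log2 ratios of sums are those of the mean FPKM of the groups. Their errors combine the SDs of the log2 values of the groups and are not standard errors, unlike those from limma. The limma step was run on simulated data as a check of the code only, and nothing about the histone genes is read from it. Sequences came from GRCh37 with GENCODE v44lift37, which held 83 of the 87 transcripts by identifier.

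Named genes were all variant members, the 20 highest clustered members, the 3 largest positive and negative fold changes, examples of extended transcripts and selected processing and chaperone genes. Members and lists were chosen with earlier results of these data known. Alternatives covered pseudocount, filter, scaling, variance trend, replicate block, the most abundant transcript, protein_coding transcripts, left-out libraries and the HIST2H4A and HIST2H4B genes.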

Additional observations from a re-analysis of the deposited data

How the results depend on the processing

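The number of members called higher or lower was 0 under every alternative run, as was that of the processing and chaperone genes. The depth is unknown, and with 2 libraries a group an exact test of a class sum cannot go below 0.333. Without a library in turn, the log2 ratio of the summed FPKM ranged from -0.59 to 0.77 for clustered and from -0.15 to 0.66 for variant genes. It was 0.44 and -0.16 for clustered genes in the libraries numbered 1 and 2 alone (chosen after seeing the data), and 0.24 without HIST2H4A and HIST2H4B.

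The libraries of both groups are numbered 1 and 2 in the labels, but no label says what a shared number stands for, and they were not treated as pairs. The deviations of same-numbered libraries correlated at 0.187 over 11361 gene totals. With the replicate block, 0 members were called, 7 had an unadjusted p under 0.05 in limma (1 without the block), and the lowest adjusted p of a member was 0.185. The share of all gene totals at that unadjusted p was not counted with the block, so nothing is read from the 7. Over all gene totals, 13 were called. Taken as the difference of the mean log2 sums, the log2 ratio was 0.14 for clustered and 0.24 for variant genes. The block does not change this difference, which is another measure than the log2 ratio of the mean sums given above.

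The median log2 fold change of clustered genes was -0.03 under quantile normalization. The sign of single named genes, of which none was called, turned in 15 cases with scaling or the choice of transcript. It stayed the same in 325 cases under the alternatives that left out no library. Under quantile normalization the log2 fold change was -0.29 for HIST1H1E, -0.26 for HIST1H1C, -0.22 for HIST1H2BK, -0.058 for HIST1H3B, -0.12 for HIST1H4C, -0.29 for HIST1H3D, -0.15 for HIST1H2AE, -0.15 for HIST1H2BG, -0.13 for HIST1H4E, -0.033 for HIST2H2AA3, -0.25 for HIST1H2AM and -0.10 for HIST2H3D. With median scaling it was -0.004 for HIST1H1E and -0.001 for HIST1H2AM. The most abundant transcript of CENPA gave 0.60. The cause was not tested.

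Leaving out a library turned the sign in 54 cases and kept it in 118. The log2 fold change then ranged from -0.62 to 0.59 for H1F0, -0.034 to 1.08 for H2AFV, -1.43 to 0.22 for H2AFX, -0.61 to 0.10 for H2AFY, -0.068 to 0.41 for H2AFY2 and -0.49 to 0.89 for H2AFZ. It ranged from -0.88 to 0.28 for HIST1H4B, -0.76 to 0.78 for HIST1H1E, -0.64 to 0.68 for HIST1H1C, -0.41 to 0.71 for HIST1H2BK, -0.78 to 0.39 for HIST1H4H, -0.63 to 1.14 for HIST1H3B, -0.33 to 0.76 for HIST1H4C and -0.77 to 0.89 for HIST1H3D. The range was -0.24 to 1.00 for HIST1H2BD, -0.50 to 0.89 for HIST1H2AE, -0.26 to 1.62 for HIST1H3C, -1.02 to 0.88 for HIST1H4A, -0.25 to 0.85 for HIST2H2AA4, -0.46 to 0.85 for HIST1H2BG, -0.31 to 0.53 for HIST1H4E and -1.14 to 1.12 for HIST1H2AH. For others it was -0.11 to 0.82 for HIST1H2BC, -0.35 to 0.79 for HIST2H2AA3, -0.77 to 0.79 for HIST1H2AM, -0.87 to 1.11 for HIST2H3D and -4.70 to 1.92 for HIST2H4A. Among the processing and chaperone genes it was -0.088 to 0.41 for LSM10, -1.29 to 0.80 for ZNF473, -0.23 to 2.89 for NASP, -0.36 to 0.071 for HIRA and -0.42 to 0.32 for CENPA.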
